A study of Mus musculus with 2 samples.

Results

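The 8 genes Tnf, Il1a, Il1b, Il1rn, Il6, Il10, Il12b and Il18, which encode cytokines that myeloid cells are known for, were followed by name through single-cell RNA counts of tumor-infiltrating leukocytes. All 8 were among the 32285 genes counted. The cells came from AT3 tumors, grown from a mouse mammary tumor cell line, in female mice aged 6 to 12 weeks at the start. There was 1 library of Pgd fl/fl mice, labelled WT and called the control library here, and 1 library of Pgd fl/fl LysM-Cre mice, labelled 6PGDKO and called the LysM-Cre library. Both carried the floxed Pgd allele, which encodes the pentose phosphate pathway enzyme 6PGD. Each library was a pool of the tumors of 10 mice, taken on day 30 after injection of 500000 AT3 cells, tagged with its own multiplexing oligo and loaded together with the other. Cre in the LysM-Cre line sits in the Lyz2 locus and acts in cells that express Lyz2, and it can lower Lyz2 itself. With 1 library per genotype there is no test between genotypes, and genotype, pooled animals and preparation cannot be told apart. The intervals given are exact 95% intervals that cover counting error only.

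These genes sit at the start of the inflammatory response of myeloid cells. Sensors of microbial or damage signals switch on NF-kB, which drives transcription of Tnf, the IL-1 genes, Il6 and Il12b within a short time. Interleukin-1 alpha and beta act on the same receptor, and the product of Il1rn occupies that receptor without signalling. Pro-interleukin-1 beta and pro-interleukin-18 need cleavage by caspase-1 in an inflammasome before they act, so that their mRNA does not report the active protein. Il12b encodes the chain that the cytokines IL-12 and IL-23 share, and IL-10 restrains the inflammatory ones among them. In tumors, IL-1 beta, IL-6 and IL-10 are known for their part in myeloid suppression of T cells, and IL-12 from dendritic cells (DCs) for support of T cell responses.

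The 250 bases before the annotated start are shown for 5 genes, 3 that were found in many macrophages (Il1b, Tnf, Il1a) and 2 that were found in few cells (Il6, Il12b). They were read from the RefSeq promoter table of build GRCm38.p6, the mm10 assembly the counts were made with, which held 7 of the 8 genes in 9 entries. Each is printed 5′ to 3′ along the gene's own strand, with capitals for an exact TATAAA, or its reverse complement, and for a match to the NF-kB motif, both searched on both strands.
Il1b, chr2:129371140-129371389, minus strand: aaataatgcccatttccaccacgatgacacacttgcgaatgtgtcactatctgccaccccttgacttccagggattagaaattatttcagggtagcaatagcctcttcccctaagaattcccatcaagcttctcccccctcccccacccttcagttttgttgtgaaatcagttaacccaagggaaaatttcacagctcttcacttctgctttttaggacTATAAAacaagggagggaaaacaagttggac
Tnf, chr17:35202008-35202257, minus strand: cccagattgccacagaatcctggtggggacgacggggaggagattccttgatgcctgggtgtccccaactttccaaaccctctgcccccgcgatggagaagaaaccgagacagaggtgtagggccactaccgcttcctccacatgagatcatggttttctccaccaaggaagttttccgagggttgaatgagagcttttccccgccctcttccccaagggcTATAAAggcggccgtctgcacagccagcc
Il1a, chr2:129309973-129310222, minus strand: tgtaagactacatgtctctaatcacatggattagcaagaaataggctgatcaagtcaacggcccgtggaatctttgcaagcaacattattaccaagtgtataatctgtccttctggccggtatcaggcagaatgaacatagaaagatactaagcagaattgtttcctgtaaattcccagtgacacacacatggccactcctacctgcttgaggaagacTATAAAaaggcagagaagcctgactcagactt
Il6, chr5:30012864-30013113, plus strand: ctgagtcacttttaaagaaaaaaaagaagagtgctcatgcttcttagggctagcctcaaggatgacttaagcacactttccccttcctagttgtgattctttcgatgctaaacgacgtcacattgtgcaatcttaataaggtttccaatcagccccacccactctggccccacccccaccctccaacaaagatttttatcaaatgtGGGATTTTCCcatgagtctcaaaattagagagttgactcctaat
Il12b, chr11:44399813-44400062, plus strand: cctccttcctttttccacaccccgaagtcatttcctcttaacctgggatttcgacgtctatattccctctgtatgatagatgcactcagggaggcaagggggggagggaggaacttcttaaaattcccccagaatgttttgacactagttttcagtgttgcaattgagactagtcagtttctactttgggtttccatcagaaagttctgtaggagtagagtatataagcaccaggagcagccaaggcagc
The last base of TATAAA lay 26 bases before the start of Il1b, 27 before that of Il1a and 24 before that of Tnf. TATAAA was absent from the windows of Il6 and Il12b. It occurs in 12.4% of all 32851 promoter windows of this length. The NF-kB motif matched in the window of Il6 alone among the 7 members with an entry, with its last base 35 bases before the start on the plus strand. Il10 had no entry and was not searched. The motif matches in 7.25% of all windows. The gene bodies lie at chr2:129364569-129371164 (Il1b), chr2:129299609-129310186 (Il1a), chr2:24336860-24351491 (Il1rn), chr17:35199367-35202007 (Tnf), chr5:30013114-30019975 (Il6), chr11:44400063-44414677 (Il12b), chr9:50554700-50581841 (Il18) and chr1:131019845-131024970 (Il10). For Il1b and Il1a the start in the promoter table lies inside the gene body. Their windows therefore overlap it, that of Il1a for the most part.

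After filtering, the control library held 3565 cells with a median of 5554 unique molecular identifiers (UMIs, 1 per captured RNA molecule) and the LysM-Cre library 2798 cells with a median of 7926, and no cell barcode occurred in both. The stated filter left more cells than the study gives for either genotype. Clustering gave 17 clusters that could be named from markers and 2 that could not. The control and LysM-Cre libraries held 735 and 728 macrophages, 129 and 333 monocytes, 57 and 72 neutrophils, 97 and 137 DCs, 1704 and 1071 T cells, and 566 and 35 B cells. All 8 macrophage markers were detected in macrophages, 4 of 9 monocyte markers in monocytes, 7 of 8 neutrophil markers in neutrophils and 9 of 10 DC markers in DCs, with Cd209a at 0. The unnamed clusters, led by H2-M5, Tcea3, Cldn1 and Epcam (102 and 147 cells) and by Retnla, Lyz1 and Fn1 (15 and 50 cells), are called the H2-M5 cluster and the Retnla cluster. The leading genes of the H2-M5 cluster also held Cd207, from the DC marker list, beside Epcam, from the epithelial list. In the Retnla cluster all 8 macrophage markers were detected, and its leading genes held F13a1, from the monocyte list. The labels name live CD45+ cells and, in another sentence, live CD11b+ cells as the sorted cells, and lymphocytes were present in both libraries. Pgd in macrophages was at 948 UMIs in the control and 316 in the LysM-Cre library, a log2 ratio of -1.77 (-1.96 to -1.59), and Lyz2 at 27641 and 264 UMIs. In DCs the log2 ratio of Pgd was -0.16 (-0.83 to 0.52). UMIs of T or B cell genes were found in 31.4% and 43.7% of macrophages, 28.7% and 37.2% of monocytes and 30.9% and 42.3% of DCs, and no doublet caller was run. In macrophages the summed T cell markers, none of 9 at 0, stood at 664 CPM (the UMIs of a gene over all UMIs of the cell group, on the usual counts-per-million scale) in the control and 952 in the LysM-Cre library, and the summed B cell markers at 570 and 110 CPM. In monocytes 6 of 8 macrophage markers were also detected in both libraries. Their sum there was 5575 and 5515 CPM, above the 3025 and 2260 CPM of the monocyte markers. In macrophages the macrophage markers summed to 31860 and 28170 CPM. The rule by which cells were assigned to a library from their oligos is not given in the sources used here, and the other library's oligo made up at least 10% of the oligo counts in 52.3% of control and 27.9% of LysM-Cre cells. Every ratio between libraries rests on that assignment. Without those cells the macrophage ratios kept their direction (Il1b -0.27, Tnf 0.27, Il1rn 0.38, Il18 -0.72), and those of T cells differed more, with Il10 at 0.79 in place of 1.05. The part of mixed droplets in the results below was not tested, but ratios without the cells that carry T or B cell genes are given where they differ.

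The cell groups in which the cytokines were found differed and in part overlapped. Il1b mRNA was found in most macrophages, monocytes and neutrophils, Il1a mainly in macrophages and neutrophils, Il12b in DCs of the Fscn1 cluster, Il18 in the H2-M5 cluster, macrophages and monocytes, and Il10 in macrophages and Foxp3 T cells. Between genotypes, macrophages of the LysM-Cre library had lower Il1b and Il18 and higher Tnf and Il1rn, while Il1b was higher in the monocytes and DCs of that library. Il12b was also lower in its macrophages, a difference that rested on few cells. None of the macrophage differences reached 2-fold. The levels per cell group, the summed UMIs of a gene in CPM of all UMIs of the group, are plotted for both libraries.

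**Figure D1:**
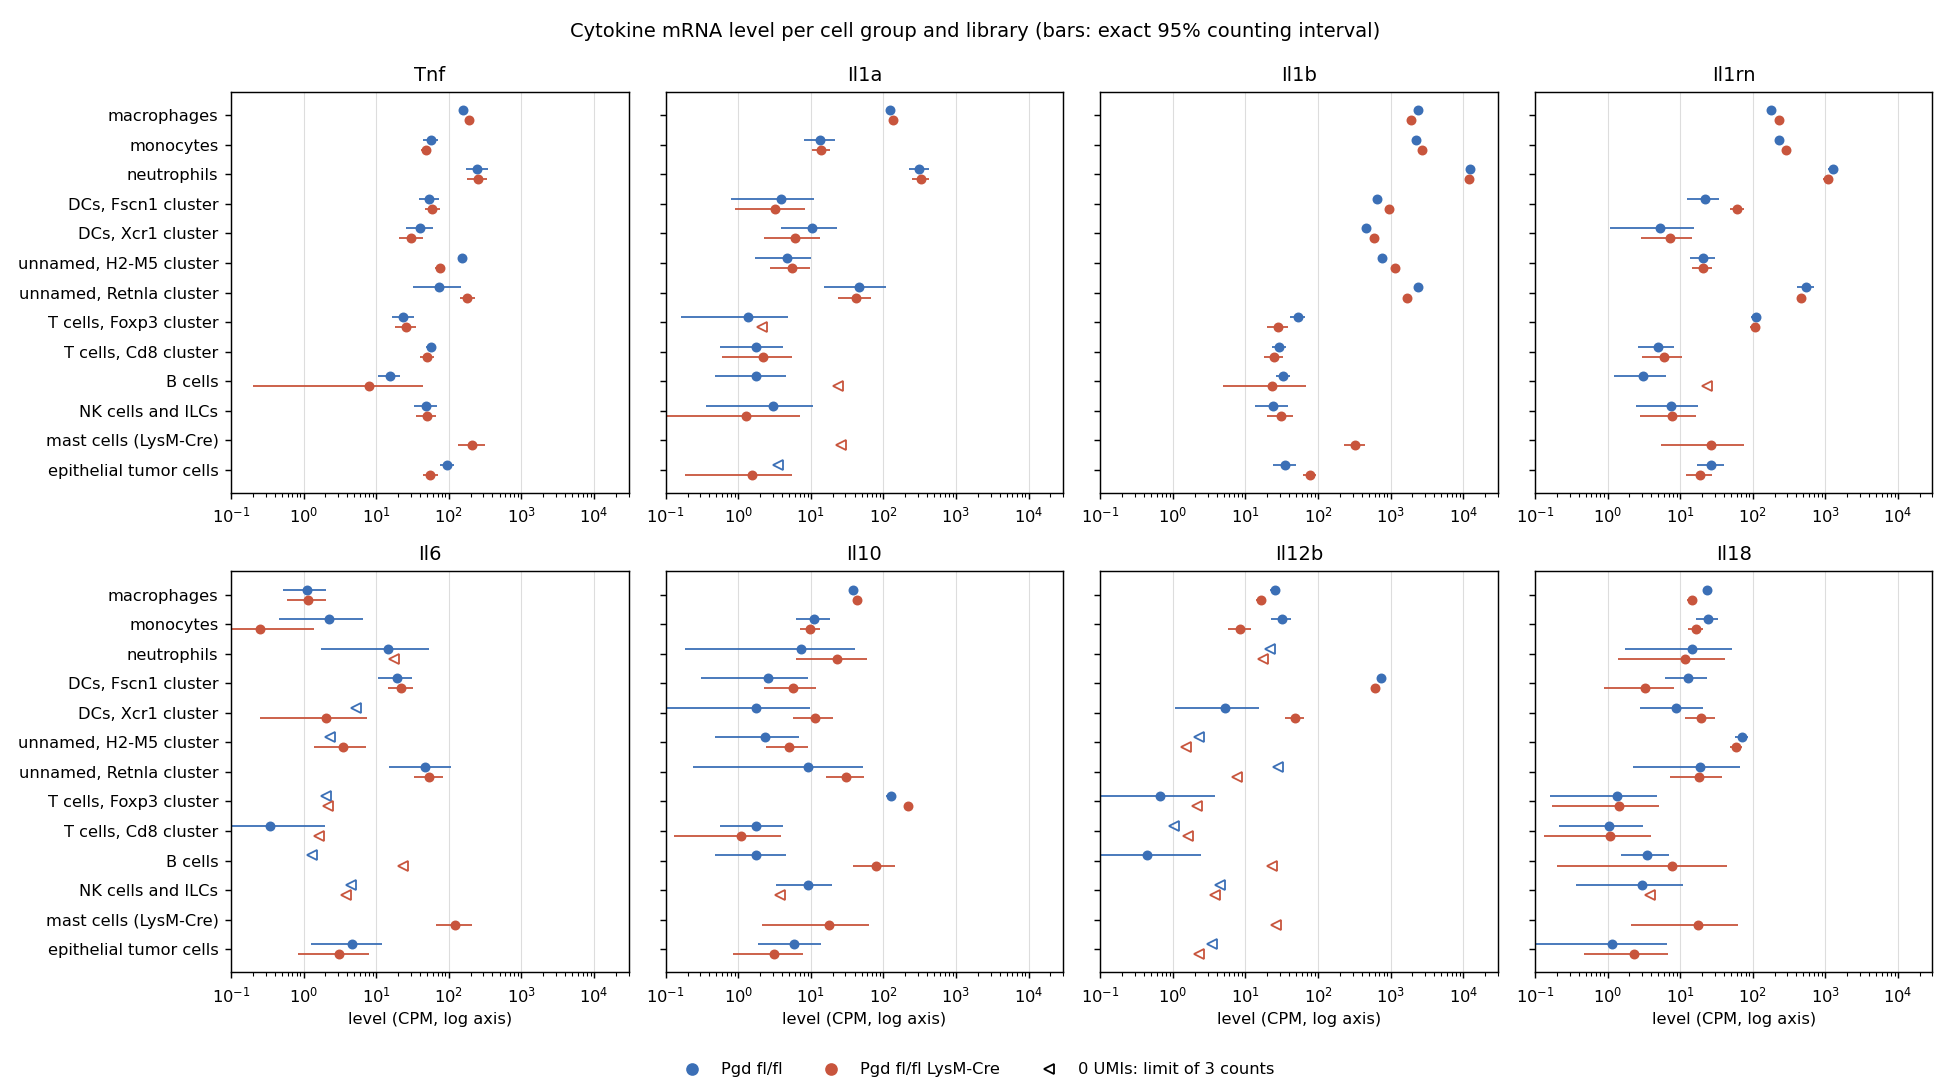
Level of each of the 8 genes (CPM, log axis) in 13 cell groups of the control library (blue) and the LysM-Cre library (red), with bars for the exact 95% counting interval and open triangles at the limit of 3 counts where no UMI was found. Il1b was highest in neutrophils at 12600 and 12090 CPM, and Il12b in the Fscn1 cluster of DCs at 728 and 616 CPM.

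Il1b, which encodes the main secreted form of interleukin-1, was highest in neutrophils, at 12600 CPM (12020 to 13210) in the control and 12090 (11580 to 12620) in the LysM-Cre library. Macrophages followed at 2358 CPM (2327 to 2390) and 1935 (1909 to 1962), and monocytes at 2235 (2156 to 2317) and 2731 (2680 to 2783). The Retnla cluster lay with them at 2403 (2119 to 2714) and 1662 (1537 to 1796) CPM, and the order of these 3 groups differed between libraries. Below them were the H2-M5 cluster at 762 and 1137 CPM and DCs at 566 and 788 CPM, whose intervals did not overlap in either library. T cells at 53.7 and 51.7 CPM and B cells at 33.0 and 23.5 CPM gave the background. A UMI of Il1b was present in 90.8% of control and 83.0% of LysM-Cre macrophages, against 10.95% and 8.57% of B cells and 11.4% and 13.6% of T cells. With cells thinned to 2000 UMIs these shares were 78.8% and 69.8% of macrophages, 5.46% and 9.09% of B cells, and 5.67% and 5.29% of T cells. The share in macrophages was thus far above that in lymphocytes at equal depth, and it was lower in the LysM-Cre library with and without thinning. The log2 ratio of LysM-Cre over control was -0.29 (-0.31 to -0.26) in macrophages and 0.29 (0.23 to 0.35) in monocytes, the opposite direction. It was 0.48 (0.35 to 0.60) in DCs, 0.58 (0.47 to 0.69) in the H2-M5 cluster and -0.06 (-0.15 to 0.03) in neutrophils. Without cells carrying T or B cell genes the macrophage value was -0.17 and the monocyte value 0.58. The UMIs were spread over many cells, since the 5 macrophages with most held 4.73% of them in the control and 4.30% in the LysM-Cre library.

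Il1a encodes interleukin-1 alpha, which is active without caspase-1 and acts locally. Neutrophils had 313 CPM (226 to 422) in the control and 331 (250 to 428) in the LysM-Cre library, and macrophages 125 (118 to 133) and 136 (129 to 144). Monocytes, by contrast, had 13.5 CPM (7.99 to 21.3) and 13.9 (10.5 to 18.1), DCs 6.64 and 4.53 CPM, and T cells 1.62 and 3.13 CPM. Monocytes thus lay far below macrophages in Il1a, whereas the same groups lay close together in Il1b. A UMI was found in 38.8% and 41.8% of macrophages (15.8% and 17.7% at 2000 UMIs), and in 0.707% of control B cells (0.182% at 2000 UMIs). Macrophages carried 91.7% of the control library's Il1a UMIs and 89.1% of the LysM-Cre library's, the largest share of the members in either. The log2 ratio was 0.12 (0.01 to 0.24) in macrophages, 0.05 (-0.74 to 0.90) in monocytes and 0.08 (-0.52 to 0.68) in neutrophils, intervals that leave room for a change in either direction in the last 2 types.

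Il1rn encodes the interleukin-1 receptor antagonist. Its level was 1281 CPM (1099 to 1485) and 1096 (945 to 1264) in neutrophils, 538 (409 to 696) and 470 (404 to 543) in the Retnla cluster, 229 (204 to 256) and 291 (274 to 308) in monocytes, and 179 (170 to 188) and 230 (221 to 240) in macrophages. This order held in both libraries, with no overlap of neighbouring intervals. Among T cells, the Foxp3 cluster, whose leading genes mark regulatory T cells, had 110 CPM and 108 CPM, against 4.01 and 4.43 CPM in the Lef1 cluster, and a UMI was found in 19.8% of its cells in each library (14.6% in each at 2000 UMIs). B cells, at 3.08 CPM in the control and 0 UMIs in the LysM-Cre library (a limit of 23.5 CPM), lay far below. The log2 ratio of LysM-Cre over control was 0.36 (0.27 to 0.46) in macrophages, 0.34 (0.16 to 0.53) in monocytes, -0.22 (-0.53 to 0.08) in neutrophils and 1.33 (0.62 to 2.12) in DCs. At a finer clustering (resolution 1.6) the monocyte ratio turned to -0.42, from 22 and 28 UMIs. The DC value came from 20 and 82 UMIs, and in the Fscn1 cluster of the LysM-Cre library 3 cells held 50% or more of its 75. In the Foxp3 cluster the ratio was -0.03 (-0.36 to 0.30).

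The antagonist and the agonist differed between libraries in opposite directions in macrophages. Of the UMIs of Il1rn and Il1b together, Il1rn made up 7.05% (6.72 to 7.39) in control and 10.63% (10.23 to 11.04) in LysM-Cre macrophages. The same share was 9.29% (8.32 to 10.3) and 9.62% (9.10 to 10.2) in monocytes, and 9.22% (7.96 to 10.6) and 8.31% (7.21 to 9.52) in neutrophils. The intervals of the libraries were apart in macrophages and overlapped in the other 2 types. They were also apart over all T cells, at 29.09% (25.85 to 32.49) and 38.41% (34.47 to 42.47). In epithelial tumor cells they were apart in the other direction, at 43.4% (29.84 to 57.72) and 19.35% (12.81 to 27.42). In DCs, at 2.538% (1.557 to 3.893) and 4.505% (3.599 to 5.562), they overlapped. In the Foxp3 cluster Il1rn held the larger part, with 67.8% and 79.5%.

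Il18 encodes interleukin-18, which with IL-12 induces interferon-gamma in lymphocytes. It was highest in the H2-M5 cluster, at 70.5 CPM (56.8 to 86.5) in the control and 59.4 (49.2 to 71.0) in the LysM-Cre library. Monocytes with 23.9 (16.4 to 33.8) and 16.5 (12.7 to 21.0) and macrophages with 23.4 (20.4 to 26.8) and 14.6 (12.3 to 17.1) did not differ from each other beyond counting error. T cells were at 1.32 and 1.42 CPM. In macrophages 22.6% (control) and 14.6% (LysM-Cre) of cells had a UMI, which thinning to 2000 UMIs brought to 4.21% and 3.42%, beside 0.911% of control B cells. The macrophage log2 ratio was -0.69 (-0.996 to -0.378), from 213 and 151 UMIs. At 2000 UMIs per cell it was -0.18. Il18 was spread thinly over control macrophages, with at most 3 UMIs in a cell and 6.57% of UMIs in the top 5, whereas 1 LysM-Cre macrophage held 15 and the top 5 held 20.5%. Without the top 5 cells of each library the log2 ratio was -0.92.

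Tnf encodes tumor necrosis factor, a membrane-bound cytokine released by ADAM17. It stood at 158 CPM (150 to 166) in control and 188 (180 to 197) in LysM-Cre macrophages, at 247 (171 to 346) and 249 (180 to 336) in neutrophils, and at 153 (133 to 176) and 75.8 (64.3 to 88.9) in the H2-M5 cluster. Lower levels were found in monocytes at 56.9 (44.8 to 71.2) and 48.1 (41.5 to 55.5), NK cells and ILCs at 48.0 and 49.5, DCs at 48.0 and 46.7, and T cells at 44.8 and 43.8 CPM, groups whose intervals overlapped. Mast cells, found in the LysM-Cre library alone with 16 cells, had 211 CPM (135 to 314). B cells gave the lowest value, 15.4 and 7.84 CPM. A UMI was present in 49.8% and 57.6% of macrophages, against 5.48% and 2.86% of B cells, and in 19.6% and 21.5% against 3.10% and 3.03% at 2000 UMIs. The log2 ratio was 0.25 (0.15 to 0.35) in macrophages and -1.02 (-1.33 to -0.70) in the H2-M5 cluster. It was -0.24 (-0.63 to 0.16) in monocytes, where alternatives ran from -0.96 (resolution 1.6, with 8 and 7 UMIs) to 0.39 (without the 5 cells with most Tnf in each library) and 4 of 10 turned the direction. In neutrophils it was 0.01 (-0.67 to 0.70). Epithelial tumor cells, which a CD45 sort should remove, had 94.8 and 55.7 CPM, of which 5 cells held 76.5% and 62.5%.

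Il6, the gene of the cytokine that drives STAT3 signalling in many cells, was rare. All control cells together held 46 UMIs and all LysM-Cre cells 88. Macrophages had 10 and 12 of them, or 1.10 CPM (0.53 to 2.02) and 1.16 (0.60 to 2.02). DCs had 15 and 29, nearly all in the Fscn1 cluster, where 20.3% and 16.7% of cells had a UMI at 19.1 CPM (10.7 to 31.6) and 22.0 (14.5 to 32.0). The Retnla cluster had 46.4 CPM (15.1 to 108) from 5 UMIs and 54.2 (33.6 to 82.9) from 21, and mast cells of the LysM-Cre library 123 CPM (67.2 to 206) from 14. No UMI was seen in 566 control B cells, which allows a level of up to 1.32 CPM. The per-cell level of Il6 was thus highest in small groups, and the log2 ratios of 0.07 (-1.26 to 1.44) in macrophages and 0.25 (-0.70 to 1.25) in DCs resolve no difference between the libraries. The macrophage values leave out the Retnla cluster, although all 8 macrophage markers were detected in it.

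Il12b was a transcript of few cells. In DCs 573 UMIs were counted in the control and 803 in the LysM-Cre library, that is 423 CPM (389 to 459) and 364 (339 to 390). The Fscn1 cluster, which carries the markers of mature DCs (Fscn1, Ccl22, Ccr7), held 570 and 756 of them, at 728 CPM (669 to 790) and 616 (573 to 662), with a UMI in 62.7% and 56.0% of cells. The Xcr1 cluster, which carries the markers of type 1 conventional DCs, had 3 and 47 UMIs, and 1 cell of the latter held 27. Even in DCs 5 cells held 51.1% and 55.2% of the gene's UMIs, with up to 99 and 170 in a cell. In macrophages 3.54% and 2.06% of cells had a UMI, against 0.177% of control B cells, and 2 cells held 50% or more of the 229 and 168 UMIs in each library. No UMI was found in neutrophils, which allows up to 21.8 and 17.4 CPM.

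The macrophage with most Il12b in each library also carried much Tnf and Il1b, whereas the DC with most carried no Tnf. The control macrophage with 105 Il12b UMIs carried 93 of Tnf and 249 of Il1b among 24391 UMIs, and the LysM-Cre macrophage with 53 carried 63 of Tnf, 90 of Il1b and 60 of Il1rn among 26712. The DCs with 99 and 170 Il12b UMIs carried 0 of Tnf and 1 and 16 of Il1b. The control macrophage had 9 UMIs of T or B cell genes and the LysM-Cre macrophage 0, and both lay above the macrophage medians of 11967 and 13305.5 UMIs. These are single cells, and those ranked below them varied. The next LysM-Cre macrophage, with 34 Il12b UMIs, had 0 of Tnf. A LysM-Cre DC with 66 Il12b UMIs had 17 of Il1b, 16 of Il1rn and 10 of Il6. The log2 ratio of Il12b was -0.22 (-0.37 to -0.06) in DCs and -0.64 (-0.93 to -0.34) in macrophages. The macrophage value was -0.95 without the top 5 cells and -0.03 without cells carrying T or B cell genes, so that it rested on which few cells were counted. In monocytes it was -1.91 (-2.61 to -1.22), where 1 control cell held 40 of 42 UMIs.

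**Figure D2:**
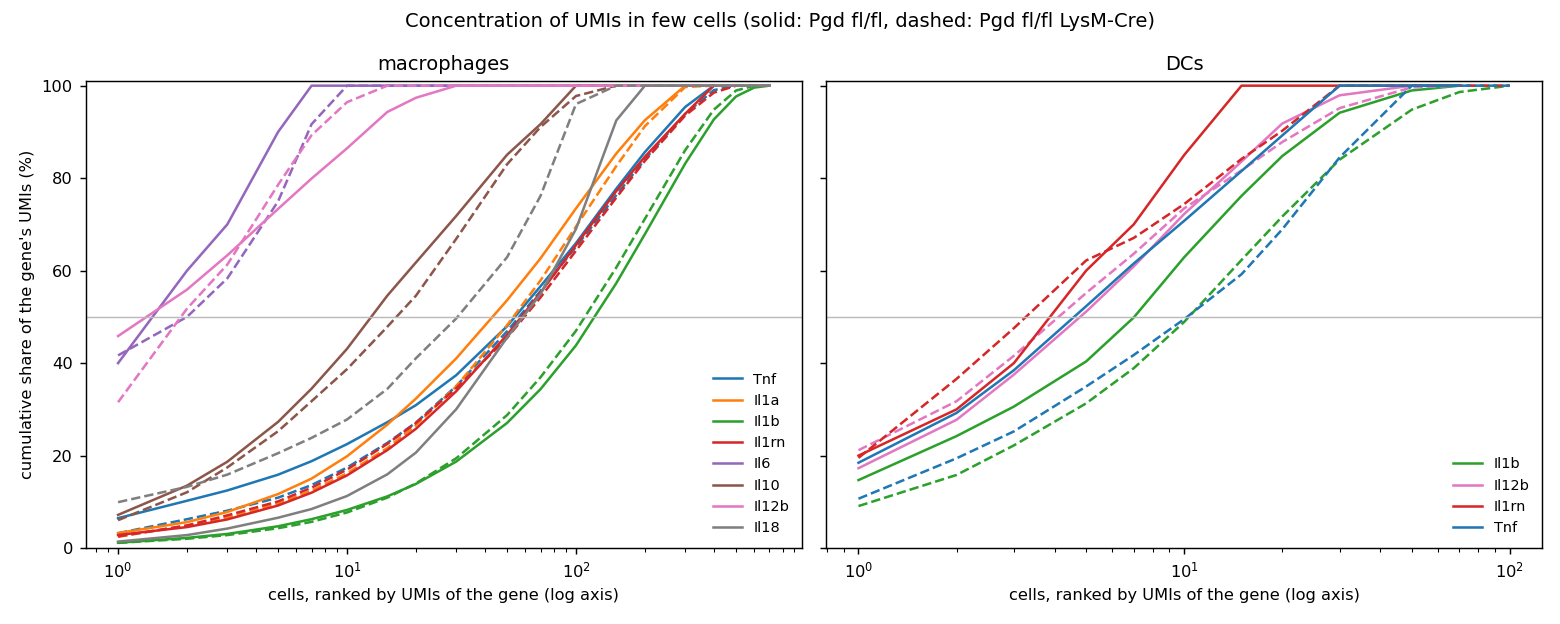
Cumulative share (%) of a gene's UMIs against the number of cells, ranked by UMIs of that gene (log axis), in macrophages (left, 8 genes) and DCs (right, 4 genes), solid for the control and dashed for the LysM-Cre library. In macrophages the curves of Il12b pass 50% at 2 cells, whereas those of Il1b pass it at 122 and 110 cells.

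Il10, the gene of the restraining cytokine, had 2 main sources. Macrophages had 38.3 CPM (34.3 to 42.5) in the control and 43.1 (39.2 to 47.3) in the LysM-Cre library and held 52.5% and 46.7% of the library's Il10 UMIs, and T cells held 41.8% and 43.0%. Within T cells the Foxp3 cluster held 189 of 277 and 305 of 411 Il10 UMIs and had the highest level, 127 CPM (110 to 147) and 219 (195 to 245). The cycling T cell cluster had 25.1 and 25.4 CPM, the Ccl20 and Csf2 cluster 18.3 and 42.2, the Il17a cluster 37.2 and 14.7, and the Cd8 cluster 1.75 and 1.09. Of the 5 T cells with most Il10, 3 in each library were in the Foxp3 cluster, and the others, with 12 to 21 UMIs, were in the cycling and the Ccl20 clusters. A UMI was found in 19.8% and 27.4% of Foxp3 cluster cells, and in 13.2% and 19.0% at 2000 UMIs. B cells of the control, at 1.76 CPM and 0.353% of cells, gave the background, while the LysM-Cre library's 35 B cells had 10 UMIs, 9 in 1 cell. The log2 ratio was 0.78 (0.51 to 1.05) in the Foxp3 cluster and 1.05 (0.83 to 1.28) over all T cells, of which the Lef1 cluster made up 477 and 56. Pgd in T cells had a log2 ratio of 0.25 (-0.02 to 0.52). In macrophages the ratio of Il10 was 0.17 (-0.03 to 0.38), and 5 cells held 27.3% and 25.3% of the UMIs. In DCs it was 1.88 (0.11 to 4.29) from 3 and 18 UMIs, 10 of them in 1 cell, and turned to -1.22 without cells carrying T or B cell genes.

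The ratios of the members were set beside those of all genes in 5 cell types. Genes with at least 20 UMIs over both libraries were compared, and a ratio of at least 1.5-fold was counted in each direction. In macrophages 0 of 8 members were higher and 2 (Il12b and Il18) lower in the LysM-Cre library, where 7.06% of all genes were higher and 4.36% lower. In monocytes 0 of 7 were higher and 1 (Il12b) lower, against 12% and 6.3%. In neutrophils 0 of 4 passed in either direction, against 14.6% and 20.9%. In DCs 2 of 7 (Il1rn and Il10) were higher and 0 lower, against 12.9% and 5.11%, and in T cells 3 of 7 (Il1a, Il10 and Il12b) were higher and 0 lower, against 7.98% and 5.19%. Of the 3 in T cells, Il12b rested on 2 cells of a cycling cluster with 31 and 11 UMIs and Il1a on 16 and 22 UMIs. The median log2 ratio of the members was 0.10 in macrophages, beside 0.07 for all genes, -0.18 beside 0.04 in monocytes, -0.02 beside -0.06 in neutrophils, 0.25 beside 0.07 in DCs and 0.55 beside 0.09 in T cells.

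**Figure D3:**
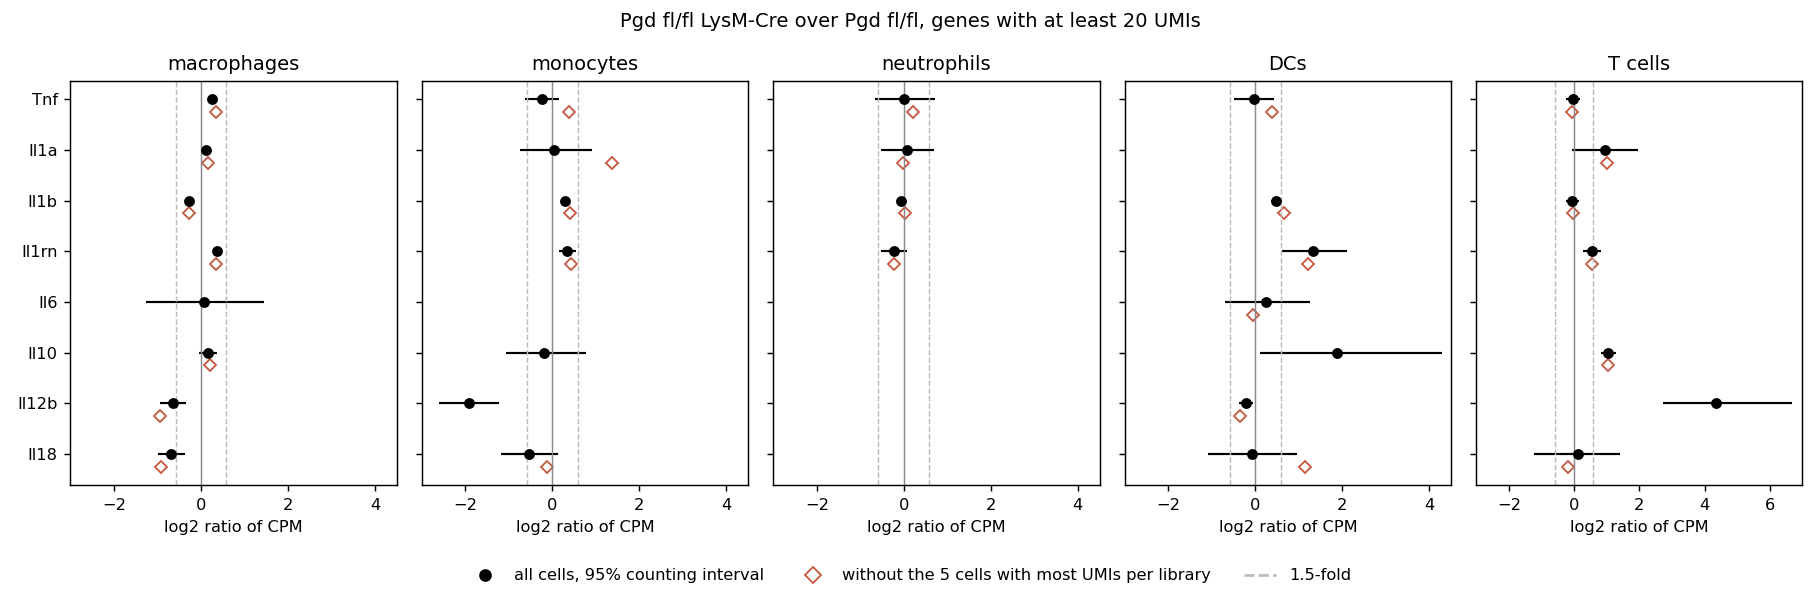
Log2 ratio of CPM, LysM-Cre over control, for members with at least 20 UMIs in 5 cell types (black, with the 95% counting interval) and without the 5 cells with most UMIs of the gene in each library (open diamonds, shown where more than 3 UMIs remained in both), with dashed lines at 1.5-fold. In macrophages Il1b lies at -0.29 and Il1rn at 0.36, and in monocytes both lie above 0.

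Over whole libraries the levels also followed the mix of cells. Il1b over all cells was 1069 CPM in the control and 1340 in the LysM-Cre library, and macrophages held 74.4% and 52.6% of its UMIs while monocytes held 10.4% and 28.3%. With the cell types of the LysM-Cre library weighted as in the control, Il1b came to 975 CPM, which turned the log2 ratio from 0.33 to -0.13. Il6 and Il12b turned likewise, from 0.86 to -0.14 and from 0.23 to -0.25. Il1rn remained higher, at 91.5 and 151 CPM and 115 with the control mix, and so did Il10, at 24.6 and 33.6 and 43.9 CPM. For Il10 the control mix weights B cells at 8.42% of UMIs in place of 0.448%. Their LysM-Cre level rests on 35 cells, with most Il10 UMIs in one of them, as given above. Tnf stood at 89.2 and 104 CPM and at 93.5 with the control mix.

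Clustering the myeloid cells again, without the members among the genes used, showed how the levels varied among macrophages. The subcluster led by Tgfb3, Cxcl1 and Dnmt3a (188 and 103 cells) had the highest Il1b of the macrophage subclusters, at 3885 CPM (3802 to 3969) in the control and 3886 (3779 to 3995) in the LysM-Cre library. It is called the Cxcl1 subcluster, and its leading genes further down include Cxcl2 and Nlrp3. The subcluster led by Adamdec1 and Ccl8 (59 and 49 cells) had 653 and 366 CPM of Il1b and 0 and 1 UMIs of Tnf. The Hes1 and Bag3 subcluster lay between, at 2138 and 1915 CPM, and the Gpnmb and Arg1 subcluster at 1747 and 2133 CPM. The log2 ratio of Il1b was 0.00 (-0.05 to 0.05) in the Cxcl1 subcluster and -0.09 (-0.15 to -0.04) without its 5 top cells. It was -0.16 (-0.22 to -0.10) in the Hes1, -0.33 (-0.41 to -0.25) in the cycling, -0.48 (-0.57 to -0.40) in the Il1rl1 and Foxp3 and -0.83 (-1.24 to -0.44) in the Adamdec1 subcluster, and 0.29 (0.19 to 0.39) in the Gpnmb subcluster. The Il1rl1 and Foxp3 subcluster was mixed, with 62.2% of its cells from macrophage and 36.0% from monocyte clusters. T or B cell genes were found in 98.8% of its cells. Weighting subclusters as in the control took the macrophage log2 ratio of Il1b from -0.28 to -0.09.

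Tnf differed between libraries in both directions across the same subclusters. In the Cxcl1 subcluster it was at 190 CPM (172 to 210) in the control and 363 (331 to 397) in the LysM-Cre library, and in the Gpnmb subcluster at 140 (115 to 170) and 248 (218 to 281), log2 ratios of 0.93 (0.74 to 1.13) and 0.82 (0.49 to 1.16). Without the 5 top cells of each library these were 0.62 and 2.20, and 1 control cell of the Gpnmb subcluster held 54 of its 109 Tnf UMIs. The opposite direction was found in the cycling subcluster (69 and 96 cells), at 129 (109 to 151) and 89.0 (77.1 to 102.1) CPM and a ratio of -0.53 (-0.84 to -0.22). It was also found in the Il1rl1 and Foxp3 subcluster, at 272 and 134 CPM and a ratio of -1.02 (-1.31 to -0.73), which turned to 0.54 without the 5 top cells, as 1 control cell held 93 of 166 UMIs. Il1rn in the Cxcl1 subcluster was at 298 (276 to 322) and 437 (402 to 475), Il1a at 172 (155 to 190) and 236 (211 to 264), Il10 at 49.9 (40.9 to 60.3) and 96.9 (80.6 to 115), and Il18 at 31.0 (24.0 to 39.3) and 10.8 (5.93 to 18.2). In the Cxcl1 subcluster 5 LysM-Cre cells held 40.4% of the Tnf UMIs. Weighting subclusters as in the control took the macrophage ratio of Tnf from 0.25 to 0.43, that of Il12b from -0.64 to -0.12, and left that of Il18 at -0.74. Among monocytes, the Cd209a and Ly6d subcluster (86 and 189 cells) had 2280 CPM (2181 to 2381) and 3508 (3425 to 3592) of Il1b, and the Ace and Chil3 subcluster 1062 and 1384 CPM. Cd209a, which leads the former, is also on the DC marker list. The subclusters led by T cell genes (Gzma and Cd8a, Il1rl1 and Foxp3, Ccl1 and Csf2) had UMIs of T or B cell genes in 94.96% to 100% of cells, and they held 108 and 150, 45 and 119, and 21 and 37 cells of the control and LysM-Cre libraries.

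**Figure D4:**
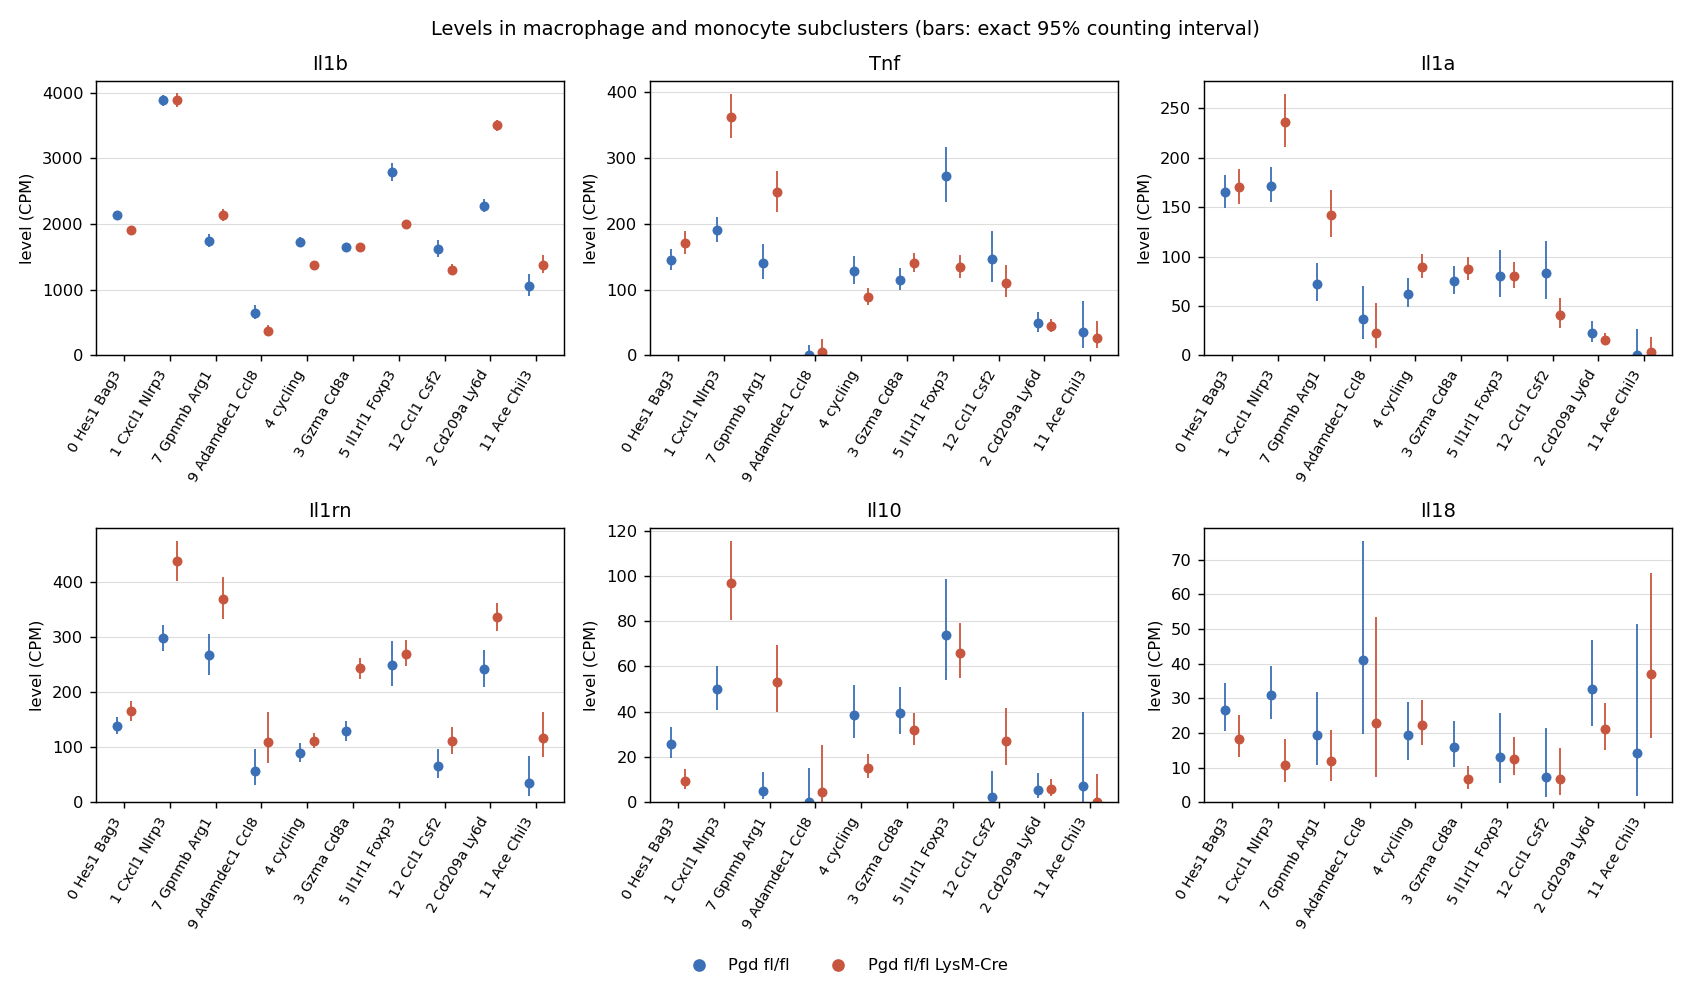
Levels (CPM, linear axis) of 6 members in 10 macrophage and monocyte subclusters of the control (blue) and LysM-Cre (red) libraries, with exact 95% counting intervals. Il1b of the Cxcl1 and Nlrp3 subcluster is at 3885 and 3886 CPM, and Tnf there is at 190 and 363 CPM.

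Of 40 further genes of these pathways, namely receptors and decoys, processing enzymes, partner chains, sensors and feedback genes, 38 could be compared in macrophages, and 2 were past 1.5-fold higher and 2 lower in the LysM-Cre library, shares near the 7.06% and 4.36% of all genes. Socs3, which limits signalling of the IL-6 family, was at 372 CPM in control and 235 in LysM-Cre macrophages, a log2 ratio of -0.66 (-0.74 to -0.59). Il18r1, the ligand-binding chain of the IL-18 receptor, was at 19.0 and 30.3 CPM, a ratio of 0.67 (0.40 to 0.95), and Irak3, a brake on Toll-like receptor signalling, had 23 and 45 UMIs. Lymphocytes had far more Il18r1, with 98.5 and 122 CPM in T cells and 119 and 156 CPM in NK cells and ILCs. The part of lymphocyte RNA in the Il18r1 values of macrophages and monocytes was not tested. Il23a, the partner of Il12b in IL-23, had 16 and 12 UMIs. In monocytes 3 of 37 were higher (Il18r1, Il12rb1 and Il27) and 2 lower, namely Zfp36, which destabilises cytokine mRNAs, at 1368 and 912 CPM and a ratio of -0.59 (-0.67 to -0.50), and Il6ra at 87.6 and 56.0 CPM, where 12% and 6.3% of all genes passed. In DCs 7 of 31 were higher and 1 lower, beside 12.9% and 5.11% of all genes. In neutrophils it was 4 and 2 of 23, beside 14.6% and 20.9%, and in T cells 2 and 3 of 35, beside 7.98% and 5.19%. Nlrp3, the sensor that activates caspase-1, had macrophage levels of 242 and 174 CPM, a ratio of -0.48 (-0.57 to -0.39), and monocyte levels of 145 and 178 CPM, a ratio of 0.29 (0.06 to 0.53), the directions that Il1b had in these types. It was chosen for its resemblance to Il1b, as described next.

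The genes whose levels followed each member most closely over 46 points (23 cell groups in 2 libraries, which share libraries and cells) were taken from 10200 genes by Pearson's r of log2(CPM + 5), as a description. They were Ptafr, Tnfaip2 and Nlrp3 for Il1b (0.96, 0.96 and 0.94), Ninj1, Cxcl2 and Ccrl2 for Il1rn (0.93, 0.92 and 0.92), and Cxcl2, Cd33 and Entpd1 for Il1a (0.87, 0.87 and 0.86). Tnf was followed by Slc3a2, Cpeb4 and Zc3h12a (0.90, 0.87 and 0.87), Il18 by I830077J02Rik, Pnp and Gm2a (0.85, 0.80 and 0.80), and Il12b by Ccl22, Cacna1s and Mmp25 (0.85, 0.79 and 0.79). The nearest genes were less like Il6 (Adgrg6 at 0.78) and Il10 (Tlk1 at 0.63). Il1a and Il1rn shared Cxcl2, a neutrophil chemokine. Cell by cell in macrophages the members were only loosely tied, with r of 0.27 in the control and 0.38 in the LysM-Cre library for Tnf with Il1a, and -0.03 and -0.05 for Tnf with Il18. Of control macrophages with a Tnf UMI 49.2% also had one of Il1a, beside 28.5% of those without, and the shares were 55.6% and 23.0% in the LysM-Cre library. Deeper cells hold more of every gene, and the part of depth in these pairs was not tested.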

How the data were processed

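Counts were used as deposited by the authors, 1 matrix of UMI counts per library, made with Cell Ranger 6.1.2 against mm10 per the submitters' processing notes. The filter on cells (500 to 7500 genes, mitochondrial share up to 15%) is the one the study's methods state. Cells were clustered with Seurat 5.3.0 (R 4.3.3) on 2000 variable genes, 1983 after leaving out the members and pathway genes, with 30 principal components, 20 neighbours, resolution 0.8 and no integration. Clusters were named from marker lists. The members and lists were chosen with earlier results of these data known. UMIs were summed per library and cell type, and the intervals are exact Poisson for levels, exact conditional for ratios and exact Clopper-Pearson for shares, with UMIs treated as independent, so that they are too narrow where few cells hold most UMIs. For shares at equal depth, cells were thinned to 2000 UMIs and shallower cells left out (713 of 735 control and 702 of 728 LysM-Cre macrophages stayed in). Where no UMI was found, the limit is 3 counts. The text names all members, Pgd and Lyz2, pathway genes past 1.5-fold with at least 50 UMIs in macrophages or monocytes, members of lists that were counted, and the 3 genes most like each member among those with at least 200 UMIs. The ratio and its interval were tested on simulated Poisson counts, which the interval assumes and which leave out the concentration of UMIs in few cells. The files also hold 12 multiplexing oligos. The other library's oligo made up a median of 10.6% of a control cell's and 5.68% of a LysM-Cre cell's oligo counts. Python 3.11.15, numpy 2.4.6, pandas 2.3.3 and scipy 1.17.1 were used. Alternatives covered the filter, resolution, normalization, depth and the cells left out.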

Additional observations from a re-analysis of the deposited data

Results flagged for a closer look

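Cell types differed in the direction of the difference between libraries for Tnf and Il1b. With 1 library per genotype none of these differences was tested. For Tnf the log2 ratio of LysM-Cre over control was 0.25 in macrophages and -1.02 in the H2-M5 cluster, a difference of 1.27. For Il1b it was -0.29 in macrophages, against 0.29 in monocytes (a difference of 0.57), 0.48 in DCs (0.76) and 0.58 in the H2-M5 cluster (0.86). UMIs of T or B cell genes were found in 31.4% of control and 43.7% of LysM-Cre macrophages, and in 31.4% and 23.8% of the H2-M5 cluster.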

How the results depend on the processing

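The log2 ratios of the 8 members in macrophages kept their sign under all 11 alternatives, with ranges of -0.35 to -0.17 for Il1b, 0.14 to 0.42 for Tnf and 0.29 to 0.39 for Il1rn. Without cells carrying T or B cell genes the macrophage ratios were 0.42 for Tnf, 0.32 for Il1a, -0.17 for Il1b and -0.033 for Il12b. Thinned to 2000 UMIs they were 0.14 for Tnf, -0.25 for Il1b and -0.18 for Il18. Il1b was at -0.32 without the top 5% of cells by UMIs and at -0.35 with the median of ratios, and Il12b at -0.95 without its 5 top cells. Over all cell types, 17 of 37 ratios changed sign under at least 1 alternative, of which 15 had an interval that held 0 (such as Tnf in monocytes and DCs, Il18 in DCs, Il1rn in the H2-M5 cluster and Il10 in monocytes). The 2 whose interval left 0 out were Il1rn in monocytes at resolution 1.6 (-0.42) and Il10 in DCs without cells carrying T or B cell genes (-1.22) or without the top 5% of cells (-1.35), and the cause was not tested. The 2 members past 1.5-fold in macrophages became 1 without cells carrying T or B cell genes, with the mean of each cell's CPM and after thinning, and 0 without the top 5% of cells or at 2-fold. The 1 in monocytes became 3 without cells carrying T or B cell genes, 2 without the top 5% of cells or without the 5 top cells of the gene, and 0 with the mean of each cell's CPM. In neutrophils the count of 0 became 1 with at least 5 UMIs and 2 after thinning. In DCs 2 became 0 after thinning, and in T cells 3 became 1 without the 5 top cells. Leaving out macrophage cluster 10 was an alternative chosen after seeing the data. No paired analysis was possible because there is 1 library per genotype. Members with few UMIs (Il6, and Il12b outside DCs) are limited by depth and by the few cells that hold them.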
